A study of Mus musculus with 6 samples.

Results

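De novo fatty acid synthesis turns surplus carbon into palmitate, and its core enzymes were followed here as 8 genes chosen by symbol: Acly, Acss2, Acaca, Acacb, Fasn, Me1, Thrsp and Mid1ip1. All 8 were found among the 53342 genes of the deposited table, and all 8 passed the filter on low values. The 6 libraries came from 3T3L1, a line of mouse fibroblast-like cells that can be made to store fat. Every group had reached confluence, was exposed for 2 days to 1 µg/ml insulin, 0.5 mM of the phosphodiesterase inhibitor IBMX and 1 µM of the glucocorticoid dexamethasone in medium with 10% serum, and was then held on insulin. The 3 groups of 2 libraries had no further addition (untreated), the solvent DMSO, or LTK-14A, a compound that the labels name a butyrylation inhibitor and whose dose and timing the sources used here do not give. Nothing in the labels says that the libraries of a group are separate cultures, and p-values therefore reflect the spread among these libraries alone.

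Acetyl-CoA is made inside mitochondria and cannot cross their membrane, so carbon leaves as citrate, which ATP citrate lyase (Acly) splits back into acetyl-CoA in the cytosol. Acetyl-CoA synthetase (Acss2) makes the same product from acetate. Acetyl-CoA carboxylase adds a carbon to give malonyl-CoA, in the committed step: the form encoded by Acaca is cytosolic and feeds synthesis, while that of Acacb sits at the mitochondrial surface, where its malonyl-CoA restrains fatty acid import. Fatty acid synthase (Fasn) then builds palmitate from malonyl-CoA and NADPH, part of which comes from malic enzyme (Me1). Thrsp and Mid1ip1 are small related proteins without known catalytic activity of their own; Mid1ip1 promotes the joining of carboxylase molecules into active polymers, and Thrsp can pair with it. The genes are induced as fat cells mature, and the pathway is active in fat and liver.

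Summed normalized values ran from 6122687 to 7091007 per library. In steps of the commonest low value, a rough stand-in for reads, the sums ran from 2738469 to 6385419, highest in the untreated libraries. Whether a step is 1 read is not known, and only 23.3% to 28.6% of low values were within 0.01 of a whole multiple. Ribosomal RNA loci took 16.4% of untreated replicate 2 and 8.60% to 10.6% of the other 5, and the members' calls were the same when these loci were left out of the scaling.

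With LTK-14A, the RNA of all 8 genes fell against DMSO, to between 1.72% (Thrsp) and 43.1% (Acss2) of the DMSO mean. In this comparison 6.58% of the 24139 genes tested fell and 3.98% rose, at an adjusted p under 0.05 in limma, a linear model fitted to all genes. The members' median log2 fold change was -1.50, against -0.05 over all genes tested. For each of the 8, both LTK-14A libraries lay below all 4 untreated and DMSO libraries, as they did for 20.7% of genes tested. The sizes differed: Thrsp and Fasn fell by 5.82 and 3.24 on the log2 scale, and the other 6 by 1.22 to 1.60. With 1 DMSO or LTK-14A library left out 7 or 8 members passed, and 2 or 3, always with Fasn and Thrsp, when genes filtered over all 6 libraries were kept in that fit. These are bulk libraries, so fewer fat-forming cells and less RNA per cell cannot be told apart. Levels below are normalized values back-calculated from the deposited ones, and fold changes are on the log2(value + 1) scale.

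**Figure D1:**
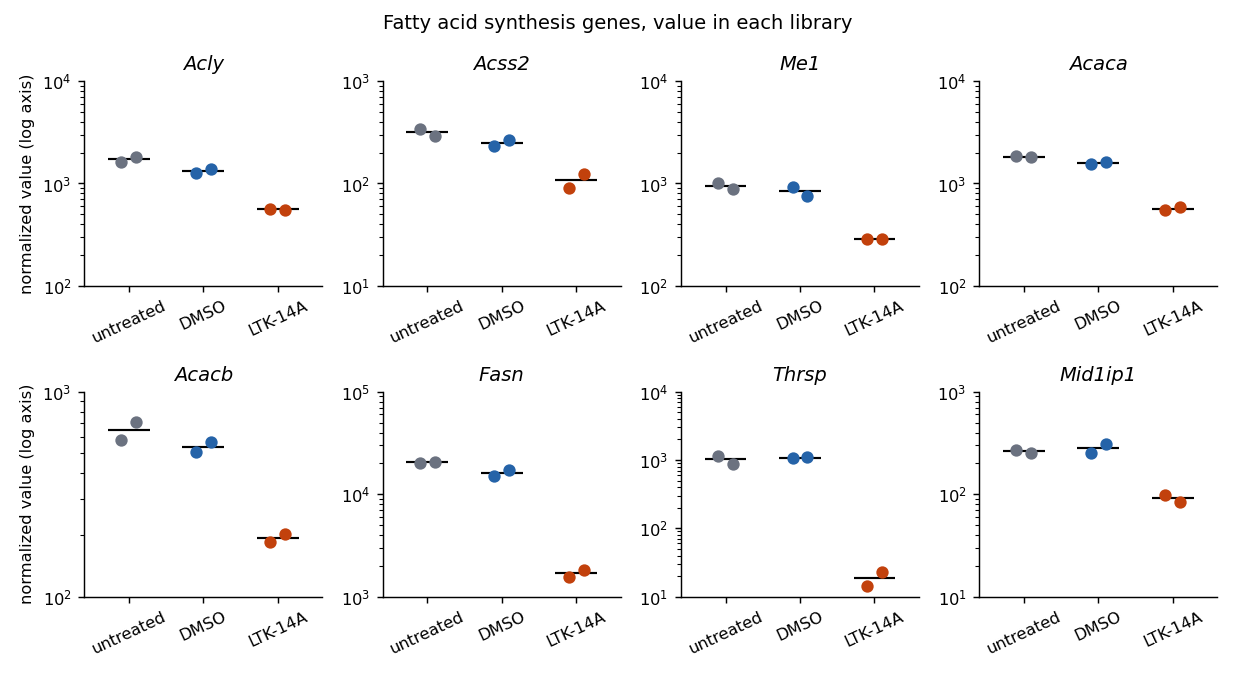
Normalized value of each of the 8 genes (log axis) in the 6 libraries, with points for libraries and bars for group means. In every panel both LTK-14A points lie below the 4 others, by the widest margin for Thrsp.

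The promoters of 4 members are printed to set the genes with the largest falls, Fasn and Thrsp, beside a pair with smaller ones, Acly and Mid1ip1. Each line holds the 250 bases before the start of the transcript in RefSeq on GRCm38.p6, written from 5′ to 3′ on the strand of the gene. Capitals mark CCAAT, the box bound by NF-Y, and GGGCGG, the GC box bound by Sp factors, on either strand. Fasn lies on the minus strand at chr11:120824548-120824797, Thrsp on the minus strand at chr7:97417551-97417800, Acly on the minus strand at chr11:100528001-100528250 and Mid1ip1 on the plus strand at chrX:10717115-10717364.
Fasn: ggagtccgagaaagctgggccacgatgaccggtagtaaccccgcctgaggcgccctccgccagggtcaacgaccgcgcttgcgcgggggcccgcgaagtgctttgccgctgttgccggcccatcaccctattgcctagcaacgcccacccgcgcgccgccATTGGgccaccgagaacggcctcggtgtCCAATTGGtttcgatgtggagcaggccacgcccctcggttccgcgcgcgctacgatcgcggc
Thrsp: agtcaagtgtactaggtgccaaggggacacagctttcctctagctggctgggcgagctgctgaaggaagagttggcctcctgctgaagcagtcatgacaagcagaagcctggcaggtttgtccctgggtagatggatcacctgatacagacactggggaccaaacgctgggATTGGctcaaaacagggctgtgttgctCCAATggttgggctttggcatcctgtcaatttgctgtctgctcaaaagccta
Acly: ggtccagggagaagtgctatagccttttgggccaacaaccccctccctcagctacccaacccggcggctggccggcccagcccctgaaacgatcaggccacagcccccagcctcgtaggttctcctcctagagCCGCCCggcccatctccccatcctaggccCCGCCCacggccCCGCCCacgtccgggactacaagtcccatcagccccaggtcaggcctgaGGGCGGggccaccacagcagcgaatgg
Mid1ip1: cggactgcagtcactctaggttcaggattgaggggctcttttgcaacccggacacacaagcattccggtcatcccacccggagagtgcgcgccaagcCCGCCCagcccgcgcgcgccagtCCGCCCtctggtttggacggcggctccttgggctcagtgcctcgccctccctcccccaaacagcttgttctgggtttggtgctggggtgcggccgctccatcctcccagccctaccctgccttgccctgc
Fasn and Thrsp each showed CCAAT and no GC box, while Acly and Mid1ip1 showed GC boxes and no CCAAT in the bases printed. Acacb, Acss2 and Acaca, not printed, do not follow this split. Acacb, which fell by 1.47, had 1 CCAAT and 0 GC boxes. Acss2, which fell by 1.22, had 1 CCAAT and 5 GC boxes, and Acaca, which fell by 1.48, had neither. Me1, also not printed, fell by 1.53. It had 4 GC boxes and 0 CCAAT at its first start, and 1 CCAAT and 0 GC boxes at its second. Counts were made on windows of 300 bases, 250 before and 50 after the start. There Fasn had 3 CCAAT matches, 2 of which share bases, and Thrsp had 2. Acly had 4 GC boxes and, after its start, 1 CCAAT, and Mid1ip1 had 3 GC boxes. G and C made up 69.3% of the Fasn window, 68.7% for Acly, 68.0% for Mid1ip1 and 54.3% for Thrsp, against a median of 52.7% over all promoters.

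All 8 genes matched an entry in the RefSeq promoter table, Me1 with 2 starts. CCAAT was in a window of 6 of the 8, for Me1 only at its second start, and in 37.4% of the 32851 mouse promoters of the same length. GGGCGG was in 4 of the 8 and in 35.7% of all. A sterol regulatory element written as TCACNCCAC was in 0 of 8 and in 1.24% of all, and the E-box CACGTG in 0 of 8 and in 7.15% of all, with both strands searched. In the members no match of 1 motif overlapped a match of another. An absent match says only that these letters are not in this window. The RefSeq start lay inside the gene as the table draws it for Acaca (65766 bp from the 5′ end), Acacb (18983 bp), Mid1ip1 (2352 bp), Thrsp (180 bp), Acss2 (95 bp) and both starts of Me1 (39 and 8676 bp).

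The sources of cytosolic acetyl-CoA fell with LTK-14A. Acly (ENSMUSG00000020917, chromosome 11, 100476353 to 100528000 in mm10, minus strand) had normalized values of 1634 and 1826 in the untreated libraries, 1256 and 1381 with DMSO, and 568 and 557 with LTK-14A. The LTK-14A libraries were alike and far below the rest, and the DMSO libraries lay below the untreated ones. The DMSO mean of 1318 ± 88.6 (SD, n = 2) became 563 ± 8.32 under LTK-14A, for a log2 difference of -1.23 (SE 0.12) that passed the test (adjusted p = 0.00101, limma).

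Acss2 (ENSMUSG00000027605, chromosome 2, 155517948 to 155585724, plus strand) had the lowest level per kilobase of annotated exon of the 8 genes in the untreated and DMSO libraries. Its normalized values were 337 and 293 untreated, 234 and 263 with DMSO, and 91.1 and 123 with LTK-14A. Groups did not overlap, and the LTK-14A libraries stood at 36.7% and 49.6% of the DMSO mean. Acss2 fell by 1.22 in log2 units (SE 0.19) with an adjusted p of 0.00768 (limma). It lost this call in fits where the other 7 kept theirs. Its adjusted p was 0.0611 and 0.0896 when DMSO replicate 1 or 2 was left out, 0.0736 when LTK-14A replicate 1 was, and 0.0647 with no variance trend. Exons of Acss2 overlap, on the opposite strand, those of Gss over 395 bp, Acss2os over 335 bp and Ggt7 over 197 bp, and the sources used here do not say whether reads were counted by strand.

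Both acetyl-CoA carboxylases fell, to 36.0% and 35.9% of their DMSO means. Acaca (ENSMUSG00000020532, chromosome 11, 84129672 to 84401651, plus strand) had 1839 and 1801 untreated, 1560.5 and 1603 with DMSO, and 546 and 592 with LTK-14A. Replicates were close together in each group and the 3 groups did not overlap. The mean of 1582 ± 30.2 with DMSO became 569 ± 32.5 with LTK-14A, and the log2 difference of -1.48 (SE 0.11) had an adjusted p of 0.000342 in limma. Acacb (ENSMUSG00000042010, chromosome 5, 114146535 to 114250761, plus strand) had 581 and 715 untreated, 508 and 572 with DMSO, and 185 and 202 with LTK-14A. It too showed its lowest values with LTK-14A, with wider spread in the untreated pair. Acacb differed by -1.47 in log2 units (SE 0.15), with an adjusted p of 0.00128 (limma).

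Their proportion to each other overlapped between the groups. Per kilobase of all annotated exons, the level of Acaca was 1.79 and 1.42 times that of Acacb in the untreated libraries, 1.73 and 1.58 times with DMSO, and 1.66 and 1.65 times with LTK-14A. The LTK-14A ratios lay inside the range of the other 4 libraries. Acaca thus made up 62.3% ± 1.51 of the pair with DMSO and 62.3% ± 0.12 with LTK-14A (SD, n = 2), and 73.0% in both when the longest coding transcript was used as the length. The Acly level was likewise 10.3 and 10.1 times the Acss2 level per kilobase with DMSO and 12.0 and 8.71 times with LTK-14A, with overlap between the groups. By the longest coding transcript it was 3.56 and 3.48 times with DMSO and 4.13 and 2.99 times with LTK-14A. These ratios were not tested.

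Fatty acid synthase, the enzyme at the end of the path, had the highest level per length of the 8 genes in every library. Fasn (ENSMUSG00000025153, chromosome 11, 120805846 to 120824547, minus strand) had 20233 and 20670.4 untreated, 15108 and 17052 with DMSO, and 1562 and 1837 with LTK-14A. The LTK-14A libraries were at 9.71% and 11.4% of the DMSO mean, and the 3 groups did not overlap. From 16080.1 ± 1374 with DMSO the mean dropped to 1699 ± 195, which is 9.46-fold lower, and the log2 difference was -3.24 (SE 0.14), at an adjusted p of 3.27e-05 (limma). Fasn ranked 185 of 24139 genes by size of fall.

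Me1 (ENSMUSG00000032418, chromosome 9, 86581371 to 86695953, minus strand), the cytosolic malic enzyme that yields NADPH, had 1010 and 874 untreated, 920 and 752 with DMSO, and 289 and 286 with LTK-14A. Here the untreated and DMSO libraries overlapped, and the LTK-14A libraries stood apart and close together. With LTK-14A the log2 difference was -1.53 (SE 0.14), at an adjusted p of 0.000935 (limma). Per kilobase, Fasn stood at 5.77 and 7.97 times Me1 with DMSO and at 1.90 and 2.26 times with LTK-14A.

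The related regulators Thrsp and Mid1ip1 both fell. Thrsp (ENSMUSG00000035686, chromosome 7, 97412938 to 97417730, minus strand) had 1165 and 889 untreated, 1069 and 1108 with DMSO, and 14.5 and 22.9 with LTK-14A. The 4 libraries without LTK-14A overlapped, and the LTK-14A values corresponded to 8.04 and 10.0 steps of the commonest low value, so little signal lies behind them. The mean of 1089 ± 27.2 with DMSO became 18.7 ± 5.96 with LTK-14A, which is 58.3-fold lower. In log2 units it fell by 5.82 (SE 0.23), at an adjusted p of 2.66e-05 (limma), and it ranked 16 of 24139 genes by size of fall.

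Mid1ip1 (ENSMUSG00000008035, chromosome X, 10715013 to 10719690, plus strand) had 271 and 254 untreated, 250.3 and 309 with DMSO, and 98.9 and 83.6 with LTK-14A. Its untreated and DMSO libraries overlapped and its LTK-14A libraries lay below them. Mid1ip1 differed by -1.60 in log2 units (SE 0.17), with an adjusted p of 0.00174 (limma). An antisense gene, Gm14493, covers 25.5% of its exon length and had 16.6 and 25.8 with DMSO and 11.6 and 9.23 with LTK-14A. Per kilobase, the Thrsp level was 4.15 and 3.49 times that of Mid1ip1 with DMSO and 0.142 and 0.266 times with LTK-14A, so that their order turned over in both treated libraries.

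**Figure D2:**
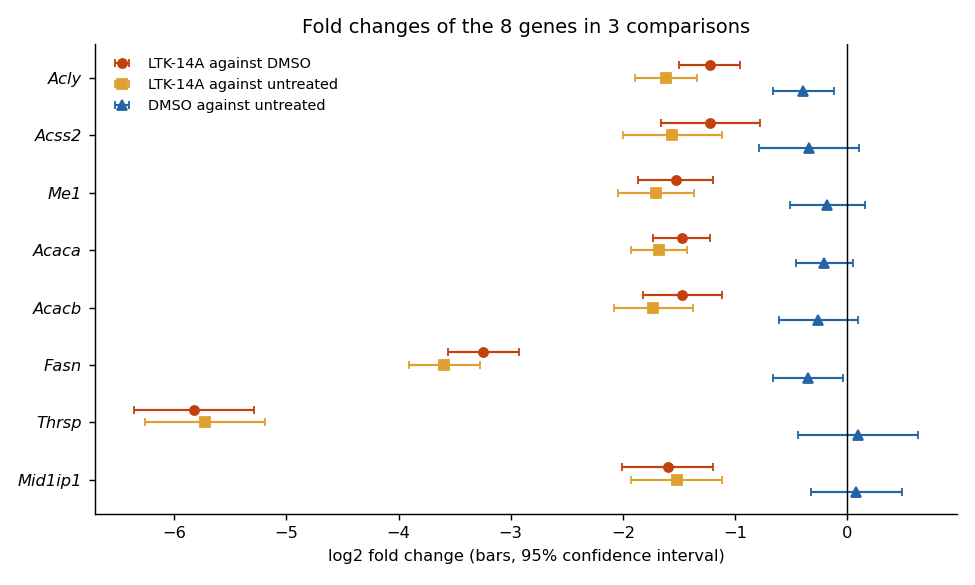
Log2 fold change of each member in the 3 comparisons, with 95% confidence intervals from limma. Both comparisons of LTK-14A lie left of 0 for all 8 genes, with Thrsp and Fasn farthest out. Estimates for DMSO against untreated run from -0.39 to 0.10, with the intervals of Acly and Fasn left of 0.

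The make-up of the set changed with its size. Summed over the 8 genes, the level per kilobase of exon was 3281 and 3195 untreated, 2630.4 and 2845 with DMSO, and 439 and 465 with LTK-14A. Fasn made up 52.5% and 54.8% of the sum with DMSO and 32.5% and 36.1% with LTK-14A. The share of Thrsp went from 18.6% and 17.8% to 1.51% and 2.25%. In turn Acly took 9.04% and 9.19% with DMSO and 24.5% and 22.7% with LTK-14A, and Mid1ip1 took 4.47% and 5.10% and then 10.6% and 8.45%. Shares sum to a whole, so those of the less affected genes had to grow, and no share was tested.

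**Figure D3:**
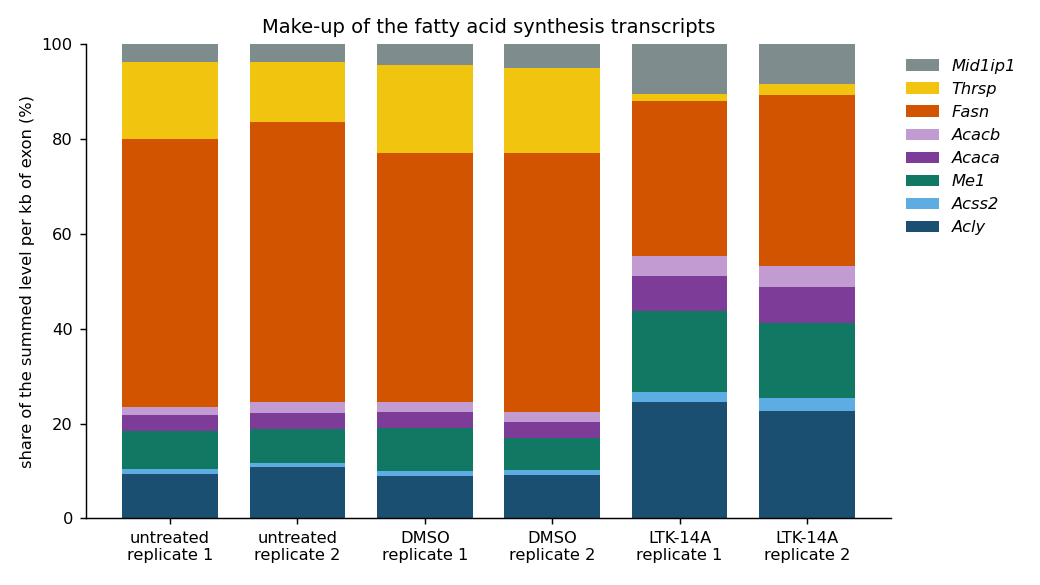
Share of each member in the summed level per kilobase of exon, in percent, for each of the 6 libraries. Fasn holds 52.5% to 59.1% in the 4 libraries without LTK-14A and 32.5% to 36.1% with it, and Thrsp shrinks to 1.51% and 2.25%.

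With DMSO, the order of mean levels per kilobase was Fasn at 1469, Thrsp at 497, Acly at 249.7, Me1 at 217, Mid1ip1 at 131, Acaca at 92.6, Acacb at 56.0 and Acss2 at 24.4. The DMSO libraries of Acly (238 to 262) and Me1 (195 to 239) overlapped, and no other neighbours did. With LTK-14A Fasn still led at 155, followed by Acly at 107, Me1 at 74.7, Mid1ip1 at 42.9, Acaca at 33.3, Acacb at 20.1, Acss2 at 10.5 and Thrsp at 8.53. Only Acss2 (8.96 to 12.1) and Thrsp (6.61 to 10.5) overlapped there. Thrsp moved from rank 2 to rank 8, and it did so with the longest coding transcript as the length as well. That choice of length put Acaca above Mid1ip1 and Acss2 above Acacb in all 3 groups.

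**Figure D4:**
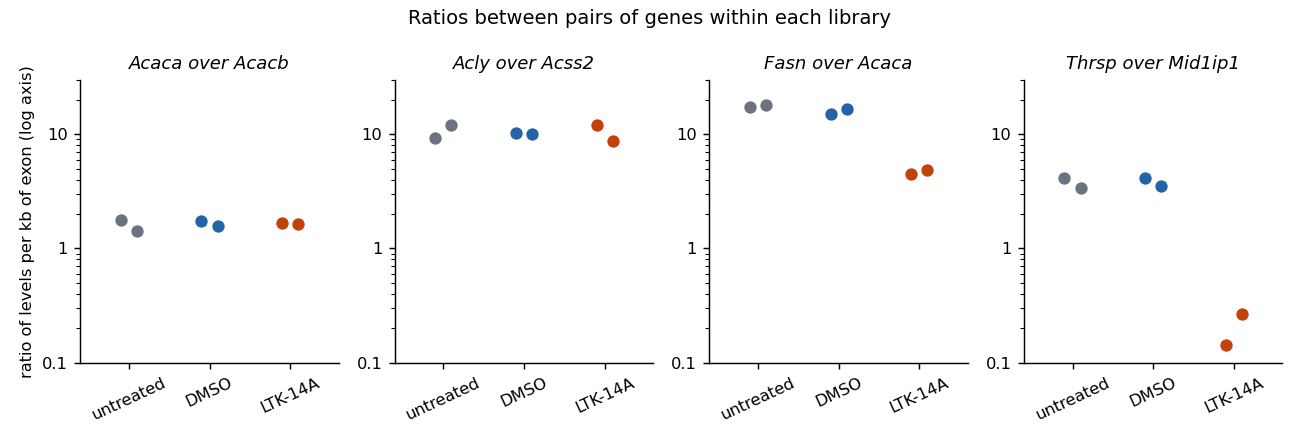
Ratios between the levels per kilobase of exon of paired members, on a log axis, in each library. Acaca over Acacb and Acly over Acss2 overlap between groups, while Fasn over Acaca and Thrsp over Mid1ip1 are lower in both LTK-14A libraries.

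The comparison of DMSO with untreated cells gives the background of the solvent. No member was called in it, and 0.0249% of genes were called in either direction, all 6 of them higher with DMSO. At an unadjusted p under 0.05, 2 members and 1408 genes passed, the members being Acly (log2 fold change -0.39, 95% confidence interval -0.67 to -0.12, adjusted p = 0.804, limma) and Fasn (-0.35, interval -0.67 to -0.03, adjusted p = 0.804). Both DMSO libraries lay below both untreated libraries for Acly, Acaca, Acacb, Fasn and Acss2, 5 of 8 members, as they did for 17.2% of genes tested. The members' median was -0.23, against -0.0035 over all genes. Intervals of the other 6 all included 0, with estimates from -0.34 for Acss2 to 0.10 for Thrsp, and the interval of Thrsp reached from -0.44 to 0.63. Thrsp and Mid1ip1 changed sign in this comparison when a library was left out, to -0.10 without untreated replicate 2 and -0.07 without DMSO replicate 2. Across 14 other ways of processing the data, the Fasn estimate ran from -0.44 to -0.05 and that of Acly from -0.47 to -0.31.

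Against untreated cells all 8 fell with LTK-14A, where 8.17% of genes fell. This comparison shares its LTK-14A libraries with that against DMSO, so it is no independent repeat. Log2 fold changes were -5.73 for Thrsp, -3.59 for Fasn, -1.73 for Acacb, -1.70 for Me1, -1.68 for Acaca, -1.62 for Acly, -1.56 for Acss2 and -1.52 for Mid1ip1. The largest adjusted p among them was 0.0024, for Acss2 (limma). Fasn was at 8.31% and Thrsp at 1.82% of the untreated mean, and the other 6 at 29.9% to 34.7%.

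Of 13 genes for transcription factors of the pathway and for proteins that process or restrain them, 5 fell and 0 rose against DMSO, with a list median of 0.05. Against untreated cells 4 fell and 1 rose. The count of falls against DMSO was 2 or 3 without 1 of the DMSO or LTK-14A libraries, and 2 with no variance trend. Mlxipl, which encodes the carbohydrate-sensing factor ChREBP, had 142 and 146 untreated, 99.4 and 99.0 with DMSO, and 0 and 4.07 with LTK-14A. Its fall was called (adjusted p = 0.00294), but with 1 library at 0 its fitted size depends on the pseudocount. Nr1h3, the oxysterol receptor LXR alpha, had 189 and 172 with DMSO and 17.2 and 25.1 with LTK-14A, and fell by 3.05. Of their partners and relatives, Mlx, the dimer partner of ChREBP, fell by 0.79 (adjusted p = 0.0401, and 0.064 after quantile normalization), and Nr1h2, or LXR beta, had a log2 fold change of 0.05 (adjusted p = 0.859).

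Srebf1, which encodes the sterol-regulated factor that induces fatty acid synthesis, had 760.2 and 1061 untreated, 693 and 748 with DMSO, and 360 and 425 with LTK-14A. It fell by 0.88 (SE 0.18, adjusted p = 0.0222, limma), and Insig1, which holds its precursor in the endoplasmic reticulum and is one of its targets, fell by 1.55. The sister gene Srebf2, more tied to cholesterol synthesis, was not called, at 0.40 (SE 0.15, adjusted p = 0.137). Nor were Scap, its escort protein, at -0.12, Mbtps1 at 0.06, Usf1 at 0.21 or Usf2 at 0.23. Mbtps2, a protease that releases the active factor, had 0.74 (adjusted p = 0.0596, and 0.0473 after quantile normalization) against DMSO and rose by 1.12 against untreated cells (adjusted p = 0.0122).

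Genes that bring carbon to Acly fell nearly throughout, 11 of 12 with 0 rising and a median of -1.48. The insulin-responsive glucose transporter Slc2a4 had 1039 and 1049 with DMSO and 34.9 and 45.8 with LTK-14A, and fell by 4.67. Log2 fold changes were -1.89 for Pdhb of pyruvate dehydrogenase and -1.34 for citrate synthase, Cs. The citrate carrier Slc25a1, picked after its values were seen because it hands citrate to Acly, fell by 1.19 (adjusted p = 0.00127, limma). Hexokinase Hk2 was the gene not called, with a log2 fold change of 0.44 (adjusted p = 0.057).

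Among 8 other sources of NADPH, 3 fell and 0 rose, with a median of -0.18. Pgd and G6pdx of the pentose phosphate path fell, with log2 fold changes of -1.56 and -1.12, and so did Aldh1l1, a folate enzyme with 31.0 and 28.2 under DMSO and a listed 0 in each LTK-14A library. Idh1, the cytosolic isocitrate dehydrogenase, was not called (-0.23, adjusted p = 0.281), nor was Nnt of the mitochondrial membrane (0.30, adjusted p = 0.22).

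Of 15 genes that control or turn over the carboxylases, their product or the synthase, 2 fell and 0 rose against DMSO. The median was -0.18, and 6.58% of all genes tested fell in that comparison. Compared with untreated cells 5 fell and 1 rose, with a median of -0.35, where 8.17% of genes fell. Prkag2, a regulatory subunit of the AMP-activated kinase that switches off the carboxylases, had 163 and 169 with DMSO and 40.3 and 27.4 with LTK-14A, and fell by 2.29 (adjusted p = 0.00156). Trib1, a scaffold for ubiquitin ligation, fell by 0.72. Btd, which recycles biotin, the cofactor of the carboxylases, was not called against DMSO (-0.75, adjusted p = 0.0522), and neither was the ubiquitin ligase gene Cop1 (0.57, adjusted p = 0.0659). Against untreated cells Btd fell by 0.81 (adjusted p = 0.0349) and Cop1 rose by 0.84 (adjusted p = 0.0145).

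Fatty acids are also made inside mitochondria by a separate set of enzymes, which supply lipoic acid. Of 10 such genes 6 fell and 0 rose, with a median of -1.05. These calls were weak: 3 of 10 fell after quantile normalization, 0 with no variance trend, and 0 or 1 without 1 of the DMSO or LTK-14A libraries. The acyl carrier protein Ndufab1 had 443 and 445 with DMSO and 168 and 242 with LTK-14A, for a log2 fold change of -1.13. It was -1.49 for the reductase Mecr, -1.69 for the malonyl-CoA synthetase Acsf3 and -1.32 for the condensing enzyme Oxsm. Of the members' 5 relatives in other compartments or tissues, Acss3, a mitochondrial relative of Acss2, had 76.1 and 86.2 with DMSO and 12.6 and 14.8 with LTK-14A and fell by 2.48 (adjusted p = 0.00445). The mitochondrial malic enzymes Me2 and Me3 were not called, at -0.92 (adjusted p = 0.0566) and 1.28 (adjusted p = 0.226). Acss1 had 3.57 in untreated replicate 1 and was listed at 0 elsewhere, Olah was listed at 0 in all 6 libraries, and neither was tested.

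Of 10 genes that use the product, 8 fell and 0 rose, with a median of -2.46. Log2 fold changes were -4.60 for the desaturase Scd1, -3.26 for the acyl-CoA synthetase Acsl1, and -3.03 and -2.89 for Dgat2 and Lpin1 of triglyceride assembly. The elongases Elovl5 and Elovl6 were not called, at -0.18 (adjusted p = 0.572) and -0.03 (adjusted p = 0.984), the latter turning to 0.14 after quantile normalization.

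**Figure D5:**
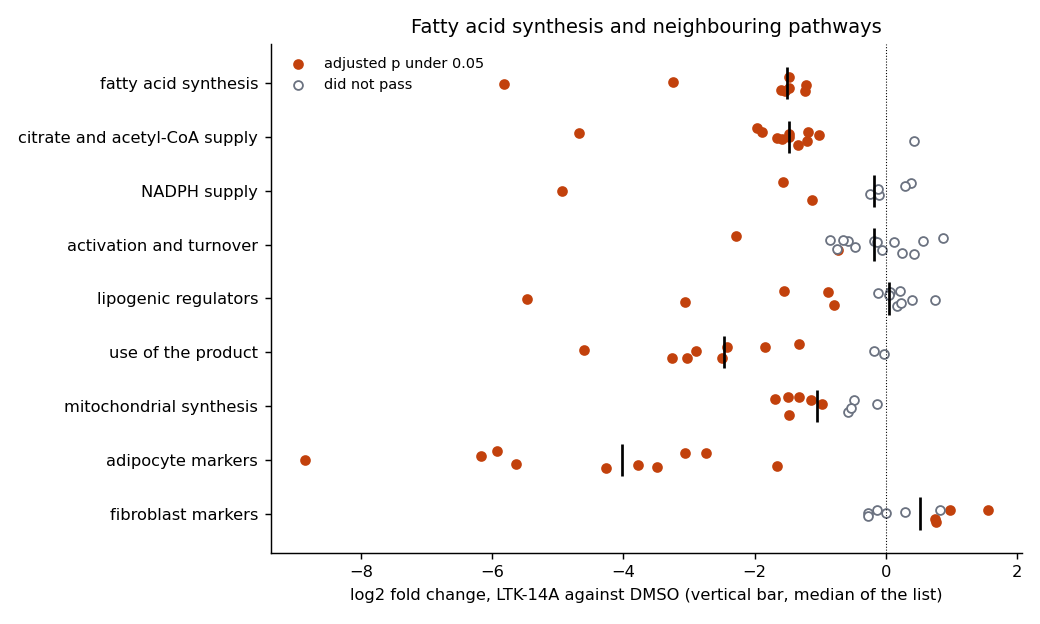
Log2 fold change of LTK-14A against DMSO for each tested gene of the members and of 8 other lists, with a bar for the list median. The members, carbon supply and product use lie below 0 for all or nearly all genes, while regulators and turnover genes scatter around 0.

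The genes whose profile over the 6 libraries lay closest to that of Fasn were Plin1, which coats lipid droplets, Acsl1, the hormone-sensitive lipase Lipe, Dgat2 and Pdzd2. Likeness was the root mean square distance between log2(value + 1) profiles centred on their means, with 13178 genes ranked that averaged 20 or more. It was 0.114 for Plin1 and 0.156 for Pdzd2. The other members ranked from 366 (Acacb, distance 0.862) to 523 (Acss2, 0.960), and Thrsp ranked 995 (1.14). The measure weighs the size of a change as well as its shape, and it is given as a description with no test.

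Markers of mature fat cells moved in the same direction as the members. All 10 adipocyte markers fell, among them Cfd, Plin1, Retn and Cidec, with a median of -4.02, and their summed value was 34444 to 42325 in the 4 libraries without LTK-14A and 3763 and 4310 with it. The labels call all libraries adipocytes. With LTK-14A the lowest of the 10 were Cfd at 2.07 and 4.56 and Lep at 0 and 4.58. The highest was Fabp4 at 2118 and 2486, and Pparg had 466 and 492. Of 10 preadipocyte and fibroblast markers, 4 rose (Fn1, Vim, Thy1 and Dlk1; 1 of them when any 1 DMSO or LTK-14A library was left out) and 0 fell, with sums of 50299 and 73379 untreated, 47334 and 50953 with DMSO, and 79688 and 83013 with LTK-14A. Much of the higher fibroblast sum was Fn1, which went from 11442 and 11305.5 with DMSO to 33277 and 33981 with LTK-14A. Of the markers not called, Cd34 and Col1a1 had positive log2 fold changes against DMSO, and Pdgfra, Pdgfrb, Ly6a and S100a4 negative ones. The list median was 0.52 against DMSO and 0.11 against untreated cells, where 3 markers rose, 0 fell and 5 had negative log2 fold changes. What part either list has in the members' fall was not tested. Liver and fat share this pathway, but hepatocyte markers summed to 0 to 6.51 per library, with Alb at 0 in 5 of 6. Endothelial markers summed to 0 to 9.58. The macrophage markers Ptprc and Itgam were at 0 in all libraries and Adgre1 in 5, their list summing to 37.6 to 59.3 without and 84.6 and 87.9 with LTK-14A. Of that list Cd68, also found in other cells, rose from 14.9 and 16.6 with DMSO to 62.2 and 67.2 with LTK-14A. Csf1r had 26.5 and 39.7 untreated, 27.4 and 42.6 with DMSO, and 23.8 and 17.4 with LTK-14A, and was not called against DMSO.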

How the data were processed

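Total RNA was turned into stranded RNA-seq libraries after removal of ribosomal RNA, per the labels' protocols. The authors deposited 1 table with a value per gene and library on a log10 scale taken over a log2 scale of a normalized count, as read from the values. Each was turned back by raising 10 and then 2 to it, and 0 was kept as 0. The build is mm10, per the submitters' processing notes; the sources used here do not name the aligner, the counter, its strand setting or the normalization. Only 23.3% to 28.6% of low values came within 0.01 of a whole multiple of the step (the commonest low value), so no count test was used, nor are counting intervals given.

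The 24139 genes that reached 1 in 2 or more libraries were fitted as log2(value + 1) in limma 3.58.1 (R 4.3.3), with 3 group means, a variance trend, no replicate block, and 2-sided Benjamini-Hochberg adjustment at 0.05. A filter is passed by any gene high in 1 group. Exon lengths come from GENCODE vM21 and promoters from RefSeq. Tables and figures used Python 3.11.15, numpy 2.4.6, pandas 2.3.3 and matplotlib 3.10.9. The fit was also run on simulated data with the same spread setting for every gene, which cannot show how well it suits these values. The members and lists were chosen with earlier results of these data known. Up to 4 genes with the smallest adjusted p were named per list, besides the regulators, the members' relatives and genes given as not called; 1 gene that this gives is not reported here. Alternatives were quantile normalization, no trend, no filter, a mean of at least 20, the compared groups alone, a replicate block, a pseudocount of 0.1, scaling without ribosomal RNA loci and leaving out each library.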

Additional observations from a re-analysis of the deposited data

How the results depend on the processing

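Each member kept its direction against DMSO under all 14 alternatives, and 7 of the 8 kept their call under all of them; Acss2 did not. Leaving out 1 library left 7 or 8 members called, but with the low-value filter still taken over all 6 libraries, an alternative added after seeing the data, it left 2 (Fasn and Thrsp) without either DMSO library and 3 without either LTK-14A library, a range of 2 to 8. Against untreated cells the range was 4 to 8. The lone library of a reduced group is assumed to vary like the others. Over all genes, 2548 changed against DMSO, 51 to 3629 with a library left out and 1205 with no variance trend. For LTK-14A against untreated, 3103 changed, 291 to 4016 with a library left out, 1387 with no trend and 2044 with the compared groups alone. For DMSO against untreated, 6 changed, 0 to 109 with a library left out (109 without untreated replicate 1), 3 with a pseudocount of 0.1 and 0 with the compared groups alone. The cause was not tested. Of called genes 960 were higher and 1588 lower against DMSO, 1077 and 1274 after quantile normalization. Against untreated cells the split was 1130 and 1973, and 1373 and 1634 after quantile normalization. For DMSO against untreated, Thrsp changed sign to -0.0975 without untreated replicate 2, over a range of -0.0975 to 0.29, and Mid1ip1 to -0.068 without DMSO replicate 2, over a range of -0.068 to 0.23. The labels do not say whether replicate numbers pair the libraries. Deviations of same-numbered libraries correlated, over 13179 genes, at 0.167, -0.02 and 0.0518 for the 3 pairs of groups, which cannot settle whether they were paired. A fit with the replicate block gave 8, 0 and 8 members, and 2635, 5 and 3269 genes, in the order of LTK-14A over DMSO, DMSO over untreated and LTK-14A over untreated; it changed no call of a member. By the longest coding transcript, also added after seeing the data, the share of Acly in the Acly and Acss2 pair was 77.9% with DMSO, against 91.1% by exon length. Only 2 libraries a group and unknown read numbers limit precision.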
